A study of Homo sapiens with 3 samples.

Results

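Among the genes that carry no protein code, 8 long non-coding RNA (lncRNA) genes were examined for the binding of Strawberry Notch 1 (SBNO1) and of TAF4, which belongs to TFIID, the complex that recognises core promoters. They were taken from a fixed list of names, MALAT1, NEAT1, GAS5, SNHG1, SNHG5, SNHG8, SNHG12 and SNHG15, which was chosen with earlier results of these data known. They are 8 of the 18866 lncRNA genes of GENCODE 44 on the assembled chromosomes. Chromatin immunoprecipitation sequencing (ChIP-seq) had been done in HuCCT1, an established cholangiocarcinoma cell line, with antibodies against SBNO1, TAF4 or control immunoglobulin (IgG), and the labels give no treatment or change of genotype for any of the 3 groups. Each antibody had 1 library, made from pooled immunoprecipitates of 1 cell line, so that there were no replicates and the error between replicates could not be determined. The data are lists of peaks with a position and a score, a whole number capped at 1000 whose scaling is not stated and which therefore ranks peaks only within a list. Read numbers are not part of such a list, and the depth of each library is unknown. For every gene, all peaks within 1 kb of a transcription start site (TSS) of any of its transcripts, here called promoter peaks, were collected, together with those in the gene body and within 10 kb of the gene.

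MALAT1 and NEAT1 are long, abundant RNAs that stay in the nucleus. MALAT1 gathers in nuclear speckles, where splicing factors are stored, and NEAT1 is the RNA scaffold of paraspeckles, which need its long isoform. GAS5 and the SNHG genes are hosts of small nucleolar RNAs (snoRNAs), which are cut from their introns and guide the chemical modification of ribosomal and other RNAs. Such host genes often begin transcription in a stretch of pyrimidines, like the genes of ribosomal proteins.

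Peaks of both SBNO1 and TAF4 were listed within 1 kb of an annotated start of every one of these genes. A promoter peak was listed at 8 of 8 genes for SBNO1 and at 8 of 8 for TAF4, and at each of the 8 genes an SBNO1 promoter peak overlapped a TAF4 promoter peak. In the IgG library, the background control, 2 of 8 genes carried a promoter peak, MALAT1 and NEAT1, whereas GAS5 and the 5 SNHG genes had none. Among all 18866 lncRNA genes the shares were 10% for SBNO1 (95% Clopper-Pearson interval 9.58% to 10.4%), 11.2% for TAF4 (interval 10.8% to 11.7%) and 0.790% for IgG (interval 0.668% to 0.927%), and overlapping promoter peaks of SBNO1 and TAF4 were found at 7.89%. Among 20033 protein-coding genes the shares were 27.1%, 32.8% and 1.54%, with overlapping peaks at 23.1%. These intervals cover counting error only.

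**Figure D1:**
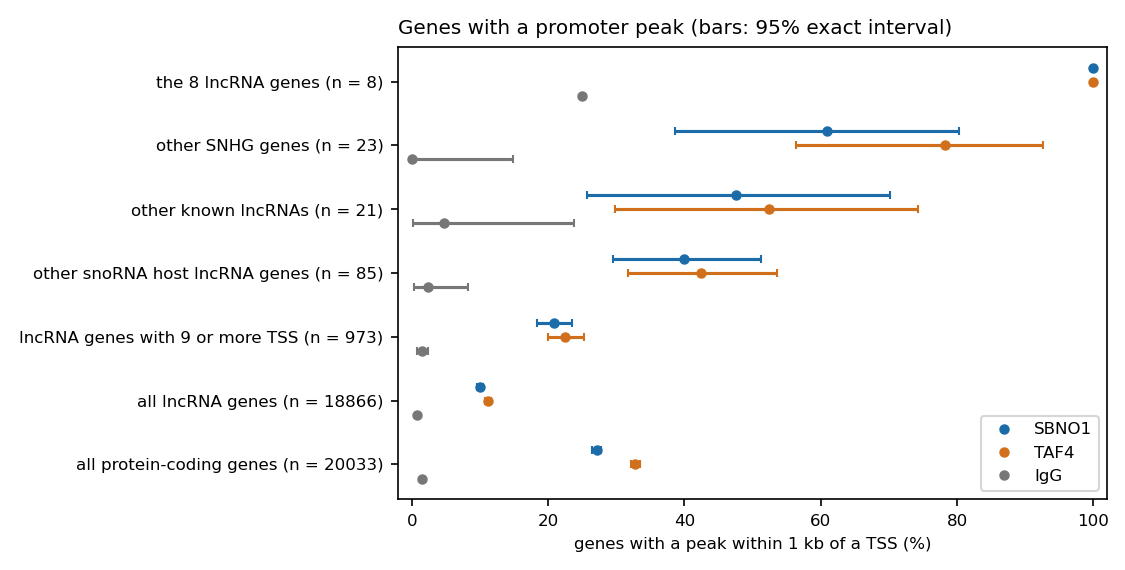
Share of genes with a peak within 1 kb of a TSS in percent (x axis) for the 8 lncRNA genes and 6 comparison lists (y axis), with 1 point per library and bars for 95% Clopper-Pearson intervals of the comparison lists. SBNO1 and TAF4 reach 100% of the 8 genes, compared with 10% and 11.2% of all lncRNA genes, and IgG marks 2 of the 8 genes and 0.790% of all lncRNA genes. Among the 23 other SNHG genes the shares are 60.9% for SBNO1, 78.3% for TAF4 and 0.00% for IgG.

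The 8 genes have many annotated starts, between 9 and 40 distinct TSS with a median of 13, while the median lncRNA gene has 1. The comparison was therefore repeated with the 973 other lncRNA genes that have 9 or more TSS. In these, promoter peaks were listed at 20.9% for SBNO1 (interval 18.4% to 23.6%), 22.5% for TAF4 (interval 19.9% to 25.3%) and 1.44% for IgG (interval 0.789% to 2.40%). Using only the Ensembl canonical TSS of each gene, all 8 genes kept their SBNO1 and TAF4 promoter peaks. At SNHG12, however, the nearest edges lay 866 bp (SBNO1) and 901 bp (TAF4) from that TSS. The SBNO1 peaks kept at MALAT1 and NEAT1 overlapped IgG peaks, as did the TAF4 peaks that covered these canonical starts. A further TAF4 peak kept at MALAT1, with its edge 958 bp from the canonical TSS, did not. Other rules did remove genes. When a peak counted only for the gene of its nearest TSS, GAS5 lost both its peaks and SNHG1 that of SBNO1, and when peaks below the median score of their list were left out, SNHG5, SNHG12 and SNHG15 lost their SBNO1 peak.

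To show the DNA under these peaks, 7 promoter windows of 6 genes are given, from 250 bases before to 50 bases from the start onward. The RefSeq promoter table (GRCh38.p14) matched 6 of the 8 genes and held 7 windows for them, since MALAT1 has 2 RefSeq starts, at 65497738 and 65499045. The RefSeq start of GAS5, at 173869045 on chromosome 1, lay 255 bp outside the SBNO1 peak and 246 bp outside the TAF4 peak, so that window is not shown and another one for GAS5 was read from the GRCh38 genome around the Ensembl canonical TSS, which both peaks covered. Capitals mark exact matches of the motifs named below, on either strand, and the longest stretch of C and T that begins within 20 bases of the start, the first one where lengths tie. Each sequence reads in the direction of the gene.
MALAT1, plus strand, chr11:65497488-65497787: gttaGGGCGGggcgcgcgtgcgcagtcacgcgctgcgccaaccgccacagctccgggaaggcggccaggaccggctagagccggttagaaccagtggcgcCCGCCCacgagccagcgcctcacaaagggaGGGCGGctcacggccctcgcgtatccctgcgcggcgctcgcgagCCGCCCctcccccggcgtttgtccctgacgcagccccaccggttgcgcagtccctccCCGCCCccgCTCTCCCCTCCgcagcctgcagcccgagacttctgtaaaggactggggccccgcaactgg
MALAT1, second RefSeq start, plus strand, chr11:65498795-65499094: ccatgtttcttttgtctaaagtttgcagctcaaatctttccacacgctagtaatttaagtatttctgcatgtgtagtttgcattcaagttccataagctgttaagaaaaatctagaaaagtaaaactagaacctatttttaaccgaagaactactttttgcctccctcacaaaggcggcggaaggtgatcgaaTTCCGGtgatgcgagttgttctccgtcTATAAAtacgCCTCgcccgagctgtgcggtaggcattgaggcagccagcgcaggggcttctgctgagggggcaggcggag
GAS5, minus strand, chr1:173867940-173868239: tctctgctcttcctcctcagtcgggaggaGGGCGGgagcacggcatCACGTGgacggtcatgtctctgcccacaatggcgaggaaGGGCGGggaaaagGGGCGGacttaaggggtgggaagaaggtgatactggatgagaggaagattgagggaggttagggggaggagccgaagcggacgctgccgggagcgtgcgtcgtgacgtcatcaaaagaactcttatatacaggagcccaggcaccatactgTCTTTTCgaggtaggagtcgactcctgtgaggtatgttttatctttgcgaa
SNHG1, minus strand, chr11:62855836-62856135: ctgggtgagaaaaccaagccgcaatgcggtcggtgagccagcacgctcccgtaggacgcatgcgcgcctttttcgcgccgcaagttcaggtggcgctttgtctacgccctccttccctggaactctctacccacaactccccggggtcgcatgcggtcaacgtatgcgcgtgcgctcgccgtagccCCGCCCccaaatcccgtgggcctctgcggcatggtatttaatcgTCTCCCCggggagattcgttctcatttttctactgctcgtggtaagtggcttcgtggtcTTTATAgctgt
SNHG5, minus strand, chr6:85678684-85678983: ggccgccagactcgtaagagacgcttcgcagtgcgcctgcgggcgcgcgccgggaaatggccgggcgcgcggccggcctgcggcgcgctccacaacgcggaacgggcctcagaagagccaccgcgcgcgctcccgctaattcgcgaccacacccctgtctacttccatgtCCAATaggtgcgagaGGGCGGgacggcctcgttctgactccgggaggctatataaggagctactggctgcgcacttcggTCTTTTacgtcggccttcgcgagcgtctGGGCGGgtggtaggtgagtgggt
SNHG8, plus strand, chr4:118278512-118278811: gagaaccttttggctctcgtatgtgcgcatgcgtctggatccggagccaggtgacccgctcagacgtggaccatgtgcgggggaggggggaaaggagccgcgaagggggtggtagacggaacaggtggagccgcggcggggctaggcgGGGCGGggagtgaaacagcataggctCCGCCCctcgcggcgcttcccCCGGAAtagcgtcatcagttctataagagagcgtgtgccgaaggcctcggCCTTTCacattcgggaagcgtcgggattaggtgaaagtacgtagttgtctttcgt
SNHG12, minus strand, chr1:28581824-28582123: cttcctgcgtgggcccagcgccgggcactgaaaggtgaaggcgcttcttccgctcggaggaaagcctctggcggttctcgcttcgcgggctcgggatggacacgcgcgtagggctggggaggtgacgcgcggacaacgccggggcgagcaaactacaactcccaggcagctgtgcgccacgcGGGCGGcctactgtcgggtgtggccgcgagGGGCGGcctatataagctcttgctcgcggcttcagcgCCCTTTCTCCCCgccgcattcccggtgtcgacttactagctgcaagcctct

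The windows differed in base composition. The share of G and C was 73.7% at the first RefSeq start of MALAT1 and 46% at the second, 60.0% for SNHG1, 67.7% for SNHG5, 62.3% for SNHG8 and 67.3% for SNHG12. At GAS5 it was 37.7% in the RefSeq window, which lay outside the peaks, and 56.7% in the window of the canonical TSS. Of the 7 RefSeq windows, 5 lay above 50%, the median over 12917 lncRNA windows of the same table, and the median over 22199 protein-coding windows was 62.3%. Both MALAT1 windows lay wholly under SBNO1 and TAF4 peaks, and only the first also under an IgG peak.

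The KLF/SP consensus GGGCGG occurred in 5 of 7 RefSeq windows, compared with 25.5% of the lncRNA and 56.3% of the protein-coding windows. It had 5 matches in the first MALAT1 window and none in the second, and none in the RefSeq window of GAS5 but 3 in that of the canonical TSS. A pyrimidine stretch of at least 6 bases that included the start base was present in 4 of 7 RefSeq windows, compared with 8.78% of lncRNA and 6.61% of protein-coding windows. It measured 12 bases in SNHG12, 11 at the first start of MALAT1 and 6 in SNHG5 and SNHG8. At the canonical TSS of GAS5 there was one of 7 bases. The longest stretch near the second start of MALAT1 and near the RefSeq start of GAS5 had 4 bases, and SNHG1 had 2 stretches of 7 bases, neither of which included the start. The pyrimidine stretch was noticed in these sequences and is given as a description.

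Each of the other motifs was in 0 or 2 of the 7 RefSeq windows. So few windows do not set these counts apart from the lncRNA shares given beside them. The AP-1 consensus, TGACTCA or TGAGTCA, was in 0 of 7 RefSeq windows, compared with 6.56% of lncRNA windows. The CCAAT box (CCAAT) was in 2 of 7, those of SNHG5 and GAS5, and in 34.5% of lncRNA windows. The ETS consensus CCGGAA was in 2 of 7, those of SNHG8 and of the second MALAT1 start, and in 10.5% of lncRNA windows. The TATA box letters TATAAA were also in 2 of 7 and in 15.1% of lncRNA windows. They began at position -30 before the second MALAT1 start, on the strand of the gene, and 40 bases into SNHG1 on the opposite strand. Variants such as TATATAA, which can be read before the start in the printed windows of SNHG5 and SNHG12, were not searched for. The E-box CACGTG was in 0 of 7 RefSeq windows and in 5.40% of lncRNA windows, and occurred at the canonical TSS of GAS5. A match is a description and does not show binding by a factor.

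The 6 snoRNA hosts had a simple layout, with 1 promoter peak of each protein. At GAS5 (ENSG00000234741.10, chromosome 1, 173858559 to 173868882, minus strand) the SBNO1 peak was 904 bp wide, from 173867887 to 173868790, with a score of 992. The TAF4 peak, from 173867874 to 173868799, was 926 bp wide with a score of 1000. Both peaks thus had nearly the same outline, the SBNO1 centre lying at -2 bp from that of TAF4 along the gene. They covered 6 of the 13 GAS5 starts and also all 4 TSS of ZBTB37, a zinc finger gene that runs in the opposite direction and starts at -93 bp from the canonical GAS5 start.

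SNHG1 (ENSG00000255717.9, chromosome 11, 62851978 to 62855953, minus strand) likewise had a divergent neighbour close by. Its SBNO1 peak extended from 62855734 to 62856259 (526 bp, score 1000) and its TAF4 peak from 62855355 to 62856214 (860 bp, score 1000). The TAF4 peak reached further into the gene, to 567 bp past the canonical TSS compared with 188 bp for SBNO1. Both covered 7 of the 21 TSS of SLC3A2, which encodes the heavy chain of an amino acid transporter and whose nearest start lies at -82 bp from that of SNHG1. At 9494 bp beyond the end of SNHG1, a 2088 bp TAF4 peak with a score of 715 was listed near the start of WDR74, where SBNO1 had a 1787 bp peak with a score of 996 and both overlapped an IgG peak.

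At SNHG5 (ENSG00000203875.13, chromosome 6, 85650491 to 85678932, minus strand) the SBNO1 peak from 85678641 to 85679115 had a width of 475 bp and a score of 536. The TAF4 peak, from 85678516 to 85679116, was 601 bp wide with a score of 1000 and contained the whole SBNO1 peak. They also covered 1 TSS of ENSG00000271793, a protein-coding gene model on the same strand whose start lies 15 bp from that of SNHG5. A further TAF4 peak of 293 bp without SBNO1 lay 6916 bp beyond the end of SNHG5, near the start of SYNCRIP.

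At SNHG8, SNHG12 and SNHG15 no protein-coding gene had a TSS within 1 kb of the promoter peaks. The SBNO1 peak at SNHG8 (ENSG00000269893.10, chromosome 4, 118278703 to 118285316, plus strand) lay from 118278246 to 118278815 (570 bp, score 1000), and the TAF4 peak from 118278470 to 118278906 (437 bp, score 1000). The SBNO1 peak was shifted upstream, its centre at -178 bp from the canonical TSS and that of TAF4 at -20 bp. At SNHG15 (ENSG00000232956.10, chromosome 7, 44983019 to 44986961, minus strand) the SBNO1 peak from 44986061 to 44987105 (1045 bp, score 553) and the TAF4 peak from 44986106 to 44987056 (951 bp, score 1000) both covered all 13 TSS and lay mostly inside the gene. The SBNO1 peak covered 22.9% of the SNHG15 gene body.

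SNHG12 (ENSG00000197989.15, chromosome 1, 28578538 to 28583132, minus strand) differed from the others in the position of its peaks. The SBNO1 peak extended from 28581759 to 28582120 (362 bp, score 677) and the TAF4 peak from 28581745 to 28582085 (341 bp, score 1000). These were the narrowest of the 8 start peaks in both lists. The SBNO1 peak lay 866 bp and the TAF4 peak 901 bp downstream of the canonical TSS at 28582986, yet each covered 7 of the 13 annotated TSS as well as the RefSeq start at 28581873, which is the start used for the window printed above.

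**Figure D2:**
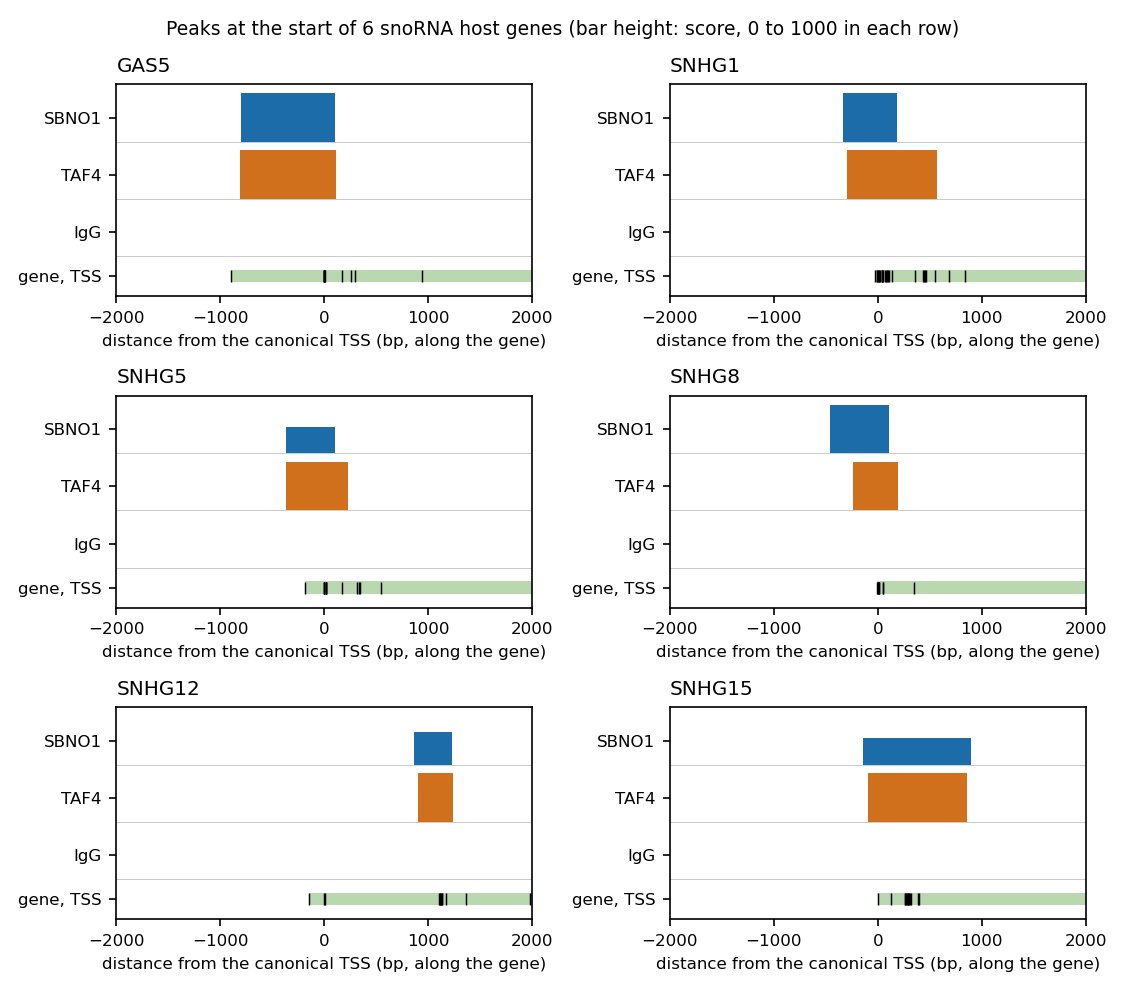
Peaks at 6 snoRNA host genes by distance from the canonical TSS in bp along the gene (x axis), in 1 row per library, with bar height showing the score from 0 to 1000; the green bar is the gene and black ticks are annotated TSS. SBNO1 and TAF4 bars overlap at every gene, the IgG row is empty, and the peaks of SNHG12 lie 866 bp or more downstream of the canonical TSS.

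The snoRNAs inside the hosts were set against the peaks by position. RefSeq places 28 snoRNA genes within the 6 hosts, 11 in GAS5, 9 in SNHG1, 4 in SNHG12, 2 in SNHG5 and 1 each in SNHG8 and SNHG15. None of the 28 lay under an SBNO1 peak or an IgG peak, and only SNORD25 and SNORD26 in SNHG1 were touched by a TAF4 peak. The share of all snoRNA genes under a peak was not determined, so this count is a description. No library listed a peak in the body of these 6 genes over 1 kb from their TSS. Of all lncRNA genes, 7.07% had such a body peak for SBNO1, 4.83% for TAF4 and 0.678% for IgG. Body peaks were thus uncommon in general, and their absence from 6 genes does not set these hosts apart.

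MALAT1 (ENSG00000251562.11, chromosome 11, 65497640 to 65508073, plus strand) was instead covered by peaks over most of its length. At the canonical start an SBNO1 peak reached from 65497320 to 65497980 (661 bp, score 1000) and a TAF4 peak from 65497229 to 65497940 (712 bp, score 1000). An IgG peak lay at the same place, from 65497440 to 65497953 (514 bp, score 508). Thus the start of MALAT1 carried peaks of all 3 libraries.

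Further SBNO1 peaks followed inside MALAT1, each of them wider than the start peak. The first began 1092 bp from the start and was 847 bp wide with a score of 822, and the next was 2411 bp wide with a score of 528. A peak of 988 bp with the low score of 300 followed, which had no TAF4 partner. Only 0.300% of SBNO1 peaks near lncRNA starts scored lower. TAF4 had peaks of 987 bp (score 1000) and 1126 bp (score 390) in this part of the gene. None of these inner peaks overlapped an IgG peak. The 987 bp TAF4 peak also covered the TSS of ENSG00000270117, a lncRNA on the opposite strand, 977 bp past the canonical MALAT1 start.

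The last peaks of MALAT1 lay at the opposite end of the gene, where TALAM1, an antisense lncRNA, begins. There the SBNO1 peak from 65506653 to 65507954 (1302 bp, score 811), the TAF4 peak from 65506597 to 65507938 (1342 bp, score 734) and an IgG peak from 65507380 to 65507952 (573 bp, score 398) all covered the TALAM1 TSS at 65507432. Together the SBNO1 peaks covered 5889 bp or 56.4% of MALAT1, the TAF4 peaks 3756 bp (36.0%) and the IgG peaks 887 bp (8.50%). By covered length MALAT1 ranked 9 of 18866 lncRNA genes for SBNO1, 14 for TAF4 and 23 for IgG. Since its 40 annotated starts spread over 7062 bp, 4 of its SBNO1 and 3 of its TAF4 peaks count as promoter peaks, although only 1 and 2 of them lay within 1 kb of the canonical TSS.

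NEAT1 (ENSG00000245532.11, chromosome 11, 65422774 to 65445540, plus strand) had the widest start peaks of the 8 genes. The SBNO1 peak extended from 65421074 to 65423641 (2568 bp, score 1000) and the TAF4 peak from 65421928 to 65424243 (2316 bp, score 1000). Of all peaks near a lncRNA start, 99.7% were narrower in each of the 2 lists. This SBNO1 peak also covered the TSS of ENSG00000290057, a lncRNA on the same strand that starts at -1350 bp from the canonical NEAT1 start. Here the IgG library had 2 promoter peaks, from 65422184 to 65422409 (226 bp, score 992) and from 65422538 to 65423117 (580 bp, score 373), both within the SBNO1 and TAF4 peaks. When peaks overlapping IgG were left out, NEAT1 had no SBNO1 promoter peak left, whereas a TAF4 peak of 2563 bp (score 477) without IgG remained 1607 bp from the canonical start.

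Inside NEAT1, SBNO1 peaks of 3007 bp (score 469) and 1576 bp (score 546) followed, and TAF4 peaks of 2563 bp, 717 bp, 885 bp and 1243 bp with scores of 477, 756, 752 and 343. IgG had 3 peaks in the same stretch, with widths of 314 bp, 299 bp and 658 bp. The peaks then stopped. The last base under a peak was 65429629 for SBNO1, 65430911 for TAF4 and 65429351 for IgG, so that the final 14629 bp of the gene, 64.3% of its length, carried no peak of any library. In GENCODE 44, 8 of the 9 NEAT1 transcripts end at or before 65426513 and 1, the long isoform, runs to 65445540. The 1576 bp SBNO1 peak, the TAF4 peaks of 717 bp, 885 bp and 1243 bp and all 3 inner IgG peaks lay wholly beyond the end of the short transcripts, in the first part of the sequence found only in the long isoform. By covered length NEAT1 ranked 11 of 18866 lncRNA genes for SBNO1 (5451 bp), 5 for TAF4 (6878 bp) and 5 for IgG (1615 bp).

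**Figure D3:**
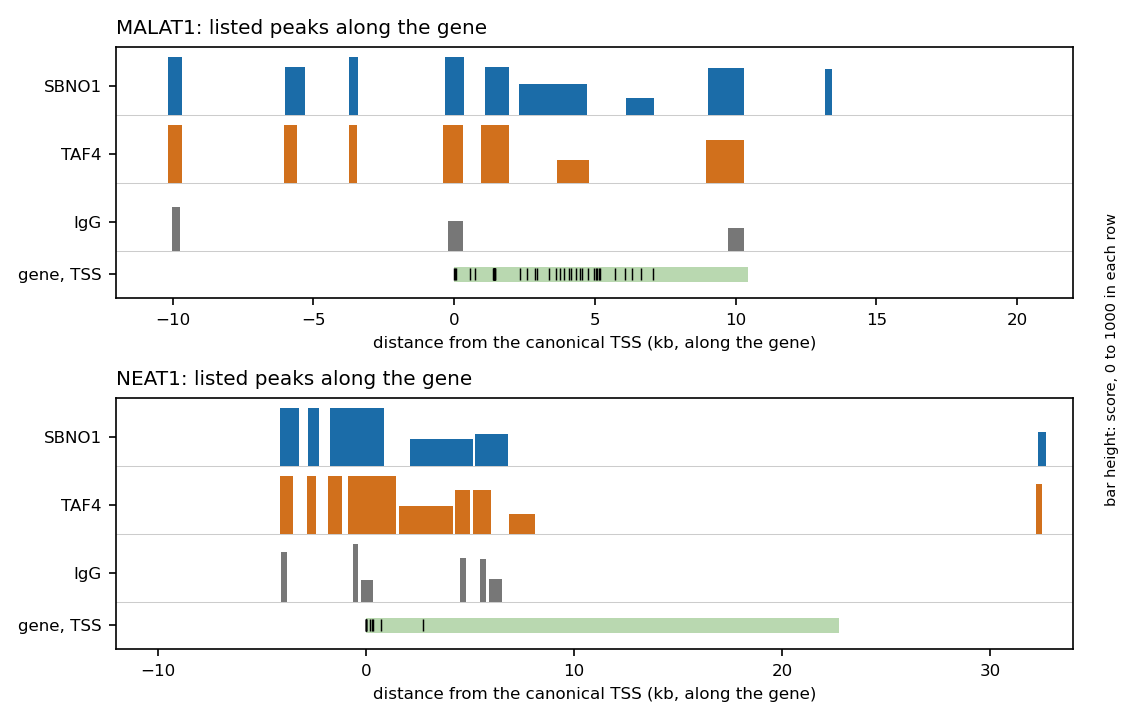
Listed peaks at MALAT1 and NEAT1 by distance from the canonical TSS in kb along the gene (x axis), in 1 row per library, with bar height showing the score from 0 to 1000; the green bar is the gene and black ticks are annotated TSS. Peaks run along MALAT1 to within 119 bp of its end, while in NEAT1 they stop 8113 bp from the canonical start.

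Both genes also had peaks upstream. NEAT1 was preceded by SBNO1 peaks of 873 bp and 541 bp, 3219 bp and 2221 bp before the gene and both at a score of 1000, each overlapped by a TAF4 peak of the same score. At MALAT1, SBNO1 and TAF4 shared 3 upstream peaks, whose SBNO1 edges lay 3427 bp, 5295 bp and 9682 bp before the gene, near the starts of unnamed lncRNAs and of LINC02736. Of these upstream peaks, the farthest one of each gene overlapped an IgG peak.

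Away from their starts, MALAT1 and NEAT1 had wide peaks, most of them below the score cap. The 6 SBNO1 peaks in their bodies with the nearest edge over 1 kb from the canonical TSS had scores from 300 to 822 with a median of 537, and widths from 847 bp to 3007 bp. The 6 TAF4 peaks chosen in the same way, which are not all partners of the SBNO1 peaks, scored from 343 to 756 with a median of 605.5. None of these 12 peaks reached the score cap of 1000. The 987 bp TAF4 peak inside MALAT1, whose edge lay 958 bp from the canonical TSS and which is not among them, did. In the same bodies 4 IgG peaks scored from 395 to 754.

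**Figure D4:**
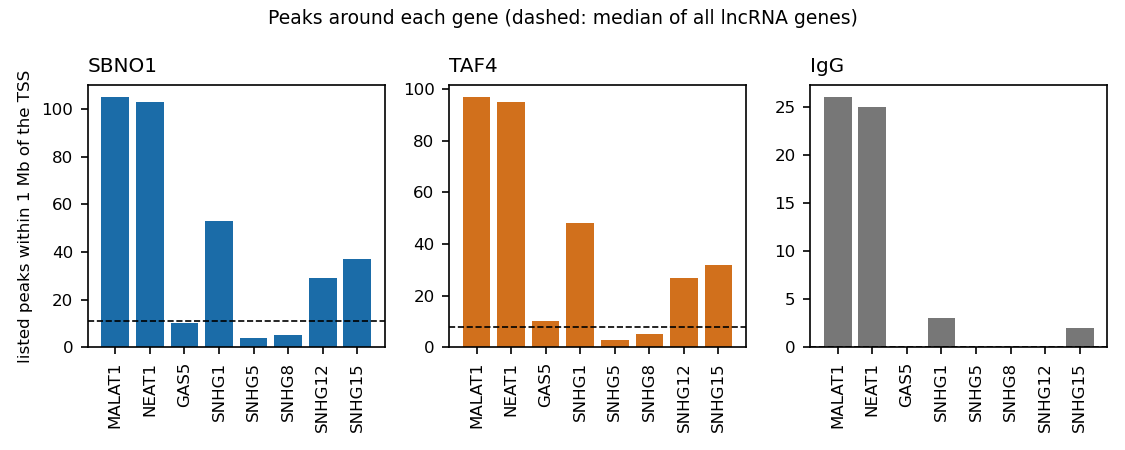
Number of listed peaks within 1 Mb to each side of the canonical TSS (y axis) of each of the 8 genes (x axis), in 1 panel per library; dashed lines give the median over all lncRNA genes, which is 11 for SBNO1, 8 for TAF4 and 0 for IgG. MALAT1 and NEAT1 stand highest in each panel, with 105 and 103 SBNO1 peaks and 26 and 25 IgG peaks.

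The 2 genes with IgG peaks lie near each other on chromosome 11 in a region where peaks of all libraries are dense. Within 1 Mb to each side of the MALAT1 start there were 105 SBNO1, 97 TAF4 and 26 IgG peaks, whereas the medians over all lncRNA genes were 11, 8 and 0. Fewer peaks were listed around 99.9% of lncRNA genes for SBNO1, 99.8% for TAF4 and 99.5% for IgG. Of the 42 other lncRNA genes in this region, 23 (54.8%) had an SBNO1 promoter peak, 23 a TAF4 promoter peak and 8 (19%) an IgG promoter peak. Around SNHG1, on the same chromosome, SBNO1 had 53 peaks, TAF4 48 and IgG 3, and SNHG15 and SNHG12 had 37 and 29 SBNO1 peaks, so that these hosts also lay above the median. Of the other lncRNA genes around SNHG1, SNHG15 and SNHG12, 7 of 19, 11 of 21 and 8 of 19 had an SBNO1 promoter peak. GAS5, with 10 SBNO1 peaks within this distance, was near the median of lncRNA genes, SNHG5 and SNHG8 with 4 and 5 were below it, and none of the 3 had an IgG peak there. SBNO1 promoter peaks were found at 1 of 9, 0 of 4 and 0 of 8 other lncRNA genes around them, and TAF4 promoter peaks at 4 of 9, 0 of 4 and 1 of 8. The part of this regional density in the peaks of MALAT1 and NEAT1 was not tested.

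The start scores of TAF4 were uniform, and those of SBNO1 varied. For the promoter peak nearest to the canonical TSS, TAF4 was at the cap of 1000 at 8 of 8 genes, while SBNO1 was at the cap at 4 of 8, namely MALAT1, NEAT1, SNHG1 and SNHG8. The remaining SBNO1 scores were 992 at GAS5, 677 at SNHG12, 553 at SNHG15 and 536 at SNHG5. In the last 3 genes only 27.9%, 13.2% and 11.7% of SBNO1 peaks near lncRNA starts scored lower. Of all peaks within 1 kb of a lncRNA TSS, 31.2% were at the cap in the SBNO1 list, 46.3% in the TAF4 list and 22.4% in the IgG list, and 0 of the 3 IgG promoter peaks of MALAT1 and NEAT1 were. Scores of different lists are not on a common scale, so a lower SBNO1 than TAF4 score does not show weaker binding.

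In width, the start peaks of the 8 genes ranged from 362 bp at SNHG12 to 2568 bp at NEAT1 for SBNO1, with a median of 615.5 bp, and from 341 bp at SNHG12 to 2316 bp at NEAT1 for TAF4, with a median of 786 bp. The medians of all peaks near lncRNA starts were 429 bp and 431 bp. SNHG12 alone lay below the list median in both libraries. The overlap took 60.7% to 100% of the SBNO1 peak and 55.9% to 100% of the TAF4 peak. The lowest values belonged to SNHG8, where SBNO1 reached further upstream, and to SNHG1, where TAF4 reached further into the gene. The centre of SBNO1 lay upstream of that of TAF4 at 7 of 8 genes and 66 bp downstream at MALAT1. The upstream differences ran from -2 bp at GAS5 and SNHG15 to -728 bp at NEAT1. At NEAT1 the SBNO1 peak also overlapped a TAF4 peak of 637 bp (score 1000) farther upstream, which this difference leaves out. The share of other genes with the same order of centres was not determined, so the count is a description.

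**Figure D5:**
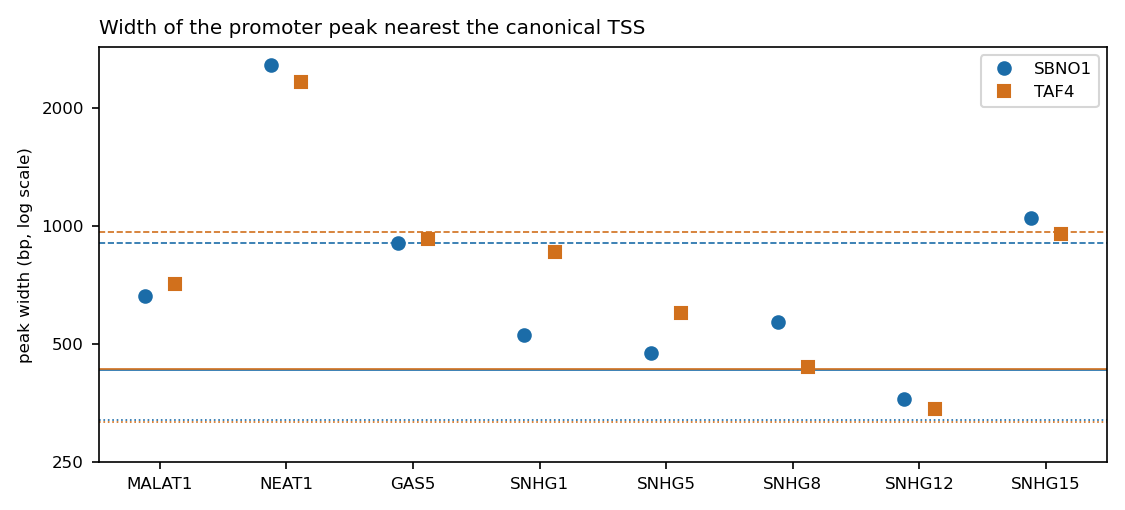
Width in bp on a log scale (y axis) of the promoter peak nearest to the canonical TSS at each of the 8 genes (x axis), for SBNO1 (circles) and TAF4 (squares); horizontal lines give the lower quartile (dotted), median (solid) and 95th percentile (dashed) of all peaks within 1 kb of a lncRNA TSS in the same list. NEAT1 has the widest peaks, at 2568 bp and 2316 bp, and SNHG12 the narrowest, at 362 bp and 341 bp.

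Taking gene bodies and 10 kb of flanks together, 22 SBNO1, 24 TAF4 and 9 IgG peaks were listed at the 8 genes. MALAT1 and NEAT1 held 9 and 6 of the SBNO1, 7 and 9 of the TAF4 and 3 and 6 of the IgG peaks, and thus all of the IgG peaks. A TAF4 peak lay over 20 of the 22 SBNO1 peaks, and 22 of the 24 TAF4 peaks met an SBNO1 peak. In the whole lists, which are not limited to the surroundings of genes, these shares were 59.7% and 75.2%. Overlap was also frequent at gene starts in general. Of 1887 lncRNA genes with an SBNO1 promoter peak, 1489 had overlapping promoter peaks of both proteins. The same held for 4622 of 5423 protein-coding genes, so the overlap is not particular to the 8 genes. All 9 IgG peaks overlapped both other lists, as did 84.5% and 87.5% of all IgG peaks for SBNO1 and TAF4, respectively. An IgG peak overlapped 8 of the 22 SBNO1 and 8 of the 24 TAF4 peaks at these genes, compared with 8.57% and 10.9% of the whole lists.

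Other host genes give a background for these counts. The 8 genes are a named list and not a random draw, so no interval is given for their share. There were 85 further lncRNA genes whose span holds a snoRNA or related scaRNA gene on the same strand in GENCODE 44, of which 40% (interval 29.5% to 51.2%) had an SBNO1, 42.4% (interval 31.7% to 53.6%) a TAF4 and 2.35% (interval 0.286% to 8.24%) an IgG promoter peak. By this rule GAS5 itself holds 0 such genes, and the 11 snoRNAs given for it above are from RefSeq positions. Among the 85 further genes are 23 further SNHG genes. Of these, 14 (60.9%, interval 38.5% to 80.3%) had an SBNO1 promoter peak and 18 (78.3%, interval 56.3% to 92.5%) a TAF4 promoter peak. The same 14 genes (60.9%) had overlapping peaks of both, and 0 of 23 (0.00%, interval 0% to 14.8%) carried an IgG promoter peak. A TAF4 peak without SBNO1 was found at 4 genes, SNHG6, SNHG7, SNHG30 and SNHG32, and neither protein was listed at 5, SNHG14, SNHG18, SNHG22, SNHG27 and SNHG28.

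Ordered by score and then by width, the SBNO1 promoter peaks of the other hosts were led by ENSG00000262202 (chromosome 17, 19111817 to 19112741, 925 bp), SNHG29 (chromosome 17, 16438636 to 16439077, 442 bp) and SNHG3 (chromosome 1, 28505786 to 28506148, 363 bp), all with a score of 1000. ENSG00000262202 also had an IgG promoter peak of 391 bp with a score of 990, and the only other host with an IgG promoter peak was GPRC5D-AS1, at 549 bp and a score of 479. Of 21 other known lncRNAs, 10 (47.6%) had an SBNO1, 11 (52.4%) a TAF4 and 1 (4.76%) an IgG promoter peak. Those with both proteins included ZFAS1 and DANCR, which also host snoRNAs, and UCA1. NORAD had TAF4 alone, LINC00511 had all 3, and HOTAIR, H19, MEG3 and KCNQ1OT1 had none.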

How the data were processed

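ChIP-seq peaks of SBNO1, TAF4 and IgG in HuCCT1 cells were used as deposited by the authors, in 1 list per antibody, with 16147, 12763 and 1598 peaks. These lists place an SBNO1 promoter peak at 5423 and a TAF4 promoter peak at 6563 protein-coding genes. The paper reports far fewer promoters bound by either protein within 1 kb of the TSS, so its set of bound promoters differs from these lists. Each list gives chromosome, start, end, name and a score, which the authors deposited as a whole number capped at 1000 without a stated scaling. Depth is unknown. Per the methods of the study, at least 3 biological replicates were pooled per antibody, and ktrim trimmed the single-end reads, bowtie2 placed them on GRCh38.p14 and normR called the peaks. The submitters' processing notes list Bowtie2 2.5.4 and Genrich 0.6.1, another peak caller, so which of them made the lists is uncertain. Threshold and control are not given in the sources used here.

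Genes and TSS were taken from GENCODE 44, with every distinct transcript start of a gene and the Ensembl canonical one. Distance was measured from the nearest peak edge, 1 kb for promoter peaks, and peaks overlapped when sharing 1 bp or more. One peak could count for several genes. Coordinates are 1-based on GRCh38. All 8 genes are named, as are genes sharing a promoter or body peak with them. Also named are the 3 other hosts with the highest-scoring SBNO1 promoter peak, ties broken by width, and hosts with an IgG promoter peak. Of 22 other known lncRNAs listed, 21 are annotated as lncRNA genes. Members and lists were chosen with earlier results of these data known. Alternatives were other TSS sets, distances, assignment, overlap and peak filters. Shares of the comparison lists have 95% Clopper-Pearson intervals (Python 3.11.15, scipy 1.17.1). With 1 library per antibody no test between libraries was made. Peak assignment, distances, overlaps and the motif search were first tested on simulated data.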

Additional observations from a re-analysis of the deposited data

How the results depend on the processing

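No paired analysis was possible because the 3 libraries come from 3 antibodies, with a single library each, so none could be left out in turn. Of 69 values under an alternative, 44 stayed within the 95% interval of a share or within 1.5 times a count, and 25 moved. Among the 8 genes, peaks at or above the median score left 5 with an SBNO1 promoter peak, 5 with overlapping SBNO1 and TAF4 promoter peaks and 1, NEAT1, with an IgG promoter peak, and 10 SBNO1 and 2 IgG peaks in or near them. Without peaks overlapping IgG, 14 SBNO1 peaks were left there. For all lncRNA genes, the shares with SBNO1, TAF4 and IgG promoter peaks were 12.8%, 13.6% and 1.02% within 3 kb, 6.15%, 6.20% and 0.498% with the nearest TSS only, and 4.98%, 6.23% and 0.286% with the median score filter. With 1 TSS per gene they were 9.12% for SBNO1 and 10.5% for TAF4, and without peaks overlapping IgG 9.36% and 10.5%. In genes with 9 or more TSS, an alternative chosen after seeing the data, they were 20.9%, 22.5% and 1.44%. For the other snoRNA hosts, the nearest TSS rule gave 27.1% for SBNO1 and 30.6% for TAF4, and the median score filter 18.8% for SBNO1. A peak list gives neither depth nor weaker signal below its threshold, so a gene without a peak is not shown to be unbound.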
